A study of Mus musculus with 25 samples.

Results

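Interferon response genes were examined in the sciatic nerve of mice that overexpress human PMP22. The genes are a listed set of 9, Ifit1, Ifit2, Ifit3, Isg15, Usp18, Rsad2, Oasl2, Bst2 and Irf7, matched by symbol to their Ensembl identifiers, out of 56956 genes in the table. The list was not chosen from levels in any one comparison. All 9 passed the filter on low counts, a log2 CPM (counts scaled to the size of the library) over 1 in at least 7 of 25 libraries, which kept 13993 genes. Usp18, the lowest of them, was over that level in 22 libraries and the other 8 genes in all 25.

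The study sequenced poly(A) RNA of whole nerves in 25 libraries, from 5 groups of mice at 5 ages from 3 to 12 weeks (the others being 5, 7 and 9). C3 mice (B6.Cg-Tg(PMP22)C3Fbas/J, on C57BL/6J) carry human PMP22 in 5 extra copies, and WT-C3 mice, their controls, are C57BL/6J. C22 mice (Tg(PMP22)C22Clh, on FVB/NRJ) carry 10 extra copies, and WT-C22 mice, their controls, are FVB/NRJ. C3-cJunKO mice carry the C3 transgene and lack c-Jun in Schwann cells through P0Cre, and neither a P0Cre control without the deletion nor the background of this group is given in the labels. Each library was a pool of the nerves of 4 to 5 males and females, and no mouse was treated. A group had 1 pool per age, so its 5 ages were treated as replicates (n = 5). The SDs and standard errors (SE) below therefore hold the effect of age together with the spread between pools, and the p-values measure only that spread. The copy number and the strain change together between C3 and C22.

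Type I interferons bind the receptor formed by Ifnar1 and Ifnar2, whose kinases Jak1 and Tyk2 pass the signal on. It ends at the interferon-stimulated response element in front of target genes, and the proteins made from those genes block viruses or tune the response itself. In nerve the known sources and responders include Schwann cells, macrophages and endothelial cells.

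The response element was searched as 2 copies of GAAA separated by any 2 bases, on either strand (2 copies of TTTC with the same gap when it lies on the other strand), in the 250 bases before the start of the canonical transcript of each gene, on the GRCm39 genome with GENCODE M39. It was found in 6 of the 9 genes (66.7%), in 723 of 21770 protein-coding genes with such a window (3.32%), in 15 of 54 other type I interferon targets (27.8%) and in 6 of 22 interferon gamma targets (27.3%). The 6 stretches are shown because they hold the element that the gene set is named for, and each is the 140 bases that end just before the start, read 5′ to 3′ along the gene, with every match in capitals.
Ifit1: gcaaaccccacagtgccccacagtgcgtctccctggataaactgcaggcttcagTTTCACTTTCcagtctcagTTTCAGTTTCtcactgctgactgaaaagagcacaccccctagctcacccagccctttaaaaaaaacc
Ifit3: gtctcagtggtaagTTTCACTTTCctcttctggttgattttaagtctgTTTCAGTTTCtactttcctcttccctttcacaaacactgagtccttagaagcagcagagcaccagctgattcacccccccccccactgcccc
Isg15: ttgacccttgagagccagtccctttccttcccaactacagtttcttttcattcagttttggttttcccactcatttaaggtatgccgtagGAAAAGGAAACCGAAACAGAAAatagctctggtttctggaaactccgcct
Usp18: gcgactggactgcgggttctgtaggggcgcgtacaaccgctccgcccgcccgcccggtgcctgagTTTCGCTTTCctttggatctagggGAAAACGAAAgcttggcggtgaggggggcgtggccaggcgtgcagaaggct
Rsad2: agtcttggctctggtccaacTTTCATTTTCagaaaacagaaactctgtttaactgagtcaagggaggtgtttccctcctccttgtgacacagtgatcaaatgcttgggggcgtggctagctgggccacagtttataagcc
Bst2: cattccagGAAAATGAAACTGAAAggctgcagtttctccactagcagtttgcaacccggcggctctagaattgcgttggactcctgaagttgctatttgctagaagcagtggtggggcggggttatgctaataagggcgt
These stretches lie at chr19:34618131-34618270 (plus strand) for Ifit1, chr19:34560759-34560898 (plus) for Ifit3, chr4:156285304-156285443 (minus) for Isg15, chr6:121222717-121222856 (plus) for Usp18, chr12:26506452-26506591 (minus) for Rsad2 and chr8:71990115-71990254 (minus) for Bst2. All are upstream of the exons of the canonical transcript, and the last bases before Usp18 are exonic in another transcript. In Ifit1 the matches lie 86 to 77 and 67 to 58 bases before the start, and in Ifit3 they lie 126 to 117 and 92 to 83 bases before it, both with the same 2 spellings, TTTCACTTTC and TTTCAGTTTC. The matches of Isg15 overlap each other and run from 50 to 29 bases before the start, and those of Bst2 overlap and run from 132 to 117. Ifit2, Irf7 and Oasl2 held no match in this window, which says only that these letters were not there.

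The libraries held between 2140142 and 49072746 counts on genes (median 24663235). The shallowest was C3 at 9 weeks. In it Usp18 rested on 3 counts (the count taken as the limit of detection), Rsad2 on 12, Irf7 on 18, Isg15 on 21 and Ifit1 on 26. Calls among the 9 genes in C3 against WT-C3 that change without this library are given below. WT-C3 libraries, at 9001002 to 16264172 counts, were shallower than most others. Human PMP22 averaged 12622 CPM in C3, 11433 CPM in C3-cJunKO and 11843 CPM in C22, against 3.15 CPM in WT-C3 and 0.820 CPM in WT-C22. Jun ran from 26.3 to 31.7 CPM in C3-cJunKO and from 93.8 to 125 CPM in C3 (n = 5; log2 fold change -1.90, SE 0.09, adjusted p = 7.29e-07 by edgeR's quasi-likelihood test). Markers of myelinating Schwann cells summed to 24814 to 97435 CPM per library, and the C22 pool of 9 weeks held B cell markers at 18.9 CPM in sum, against 0.645 to 1.37 CPM in the other C22 pools.

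Compared per kilobase of exon, Bst2 stood highest of the 9 genes in all 5 groups, with means from 12.3 CPM per kb in C22 to 27.8 CPM per kb in WT-C3. Bst2 encodes tetherin, which holds budding virus at the cell surface. In WT-C3 Ifit3 followed at 16.8, Isg15 at 13.2 and Ifit2 at 10.4 CPM per kb, and the ranges of these 3 neighbours overlapped. Oasl2 (4.62), Irf7 (4.51), Rsad2 (2.83), Ifit1 (2.66) and Usp18 (1.93 CPM per kb) followed, each overlapping the next. The mean level in CPM was highest in WT-C3 for all 9 genes and lowest in C22 for 8 of them, while for Isg15 WT-C22 was lowest. C3 and C3-cJunKO overlapped for all 9 genes.

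The IFIT proteins bind foreign RNA and block its translation, and their genes lie side by side on chromosome 19. Ifit1 (ENSMUSG00000034459, chr19:34618271-34632174) read 24.0, 15.8, 17.8, 19.4 and 21.7 CPM in the WT-C3 pools, listed here and below from the youngest to the oldest. In C3 at the same ages it read 6.25, 12.2, 15.1, 12.1 and 13.4 CPM, below every WT-C3 pool. In C3-cJunKO it read 13.5, 15.5, 13.1, 13.5 and 16.0 CPM, which overlapped the C3 range. The FVB/NRJ groups were lower still. WT-C22 pools held 5.69, 5.42, 6.96, 4.88 and 6.16 CPM of Ifit1. C22 pools held 3.61, 2.91, 5.05, 2.95 and 4.07 CPM, with the 7-week pool inside the range of the controls.

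Ifit2 (ENSMUSG00000045932, chr19:34527932-34554524), the gene with the highest mean CPM of the 9 in every group, read 56.6, 62.5, 56.5, 57.5 and 73.5 CPM in WT-C3. C3 pools held 46.8, 46.7, 46.5, 44.8 and 54.0 CPM and lay below all of these. C3-cJunKO pools held 40.4, 48.0, 46.6, 48.2 and 46.5 CPM, and the 3-week pool was the lowest. In WT-C22 Ifit2 read 49.2, 65.3, 50.0, 53.7 and 43.8 CPM, a range that overlapped WT-C3. C22 pools held 27.3, 27.6, 32.6, 31.7 and 38.8 CPM, all below the WT-C22 pools.

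Ifit3 (ENSMUSG00000074896, chr19:34560899-34566443) stood out for its youngest transgenic pools. It read 43.0, 44.5, 41.0, 46.8 and 66.4 CPM in WT-C3 and 19.2, 41.4, 49.6, 50.4 and 47.5 CPM in C3, so that the C3 pool of 3 weeks was far below and the later C3 pools were within the control range. C3-cJunKO pools held 37.3, 40.1, 40.4, 37.5 and 49.8 CPM. WT-C22 pools held 16.0, 19.0, 16.7, 17.4 and 16.0 CPM and C22 pools 8.61, 12.4, 13.6, 14.9 and 14.5 CPM, with no overlap between them. Reads that aligned to several places were left out of the counts. Ifit3 has a near copy, Ifit3b, and Ifit1 has its Ifit1bl relatives. The levels of single IFIT genes are uncertain to that extent.

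**Figure D1:**
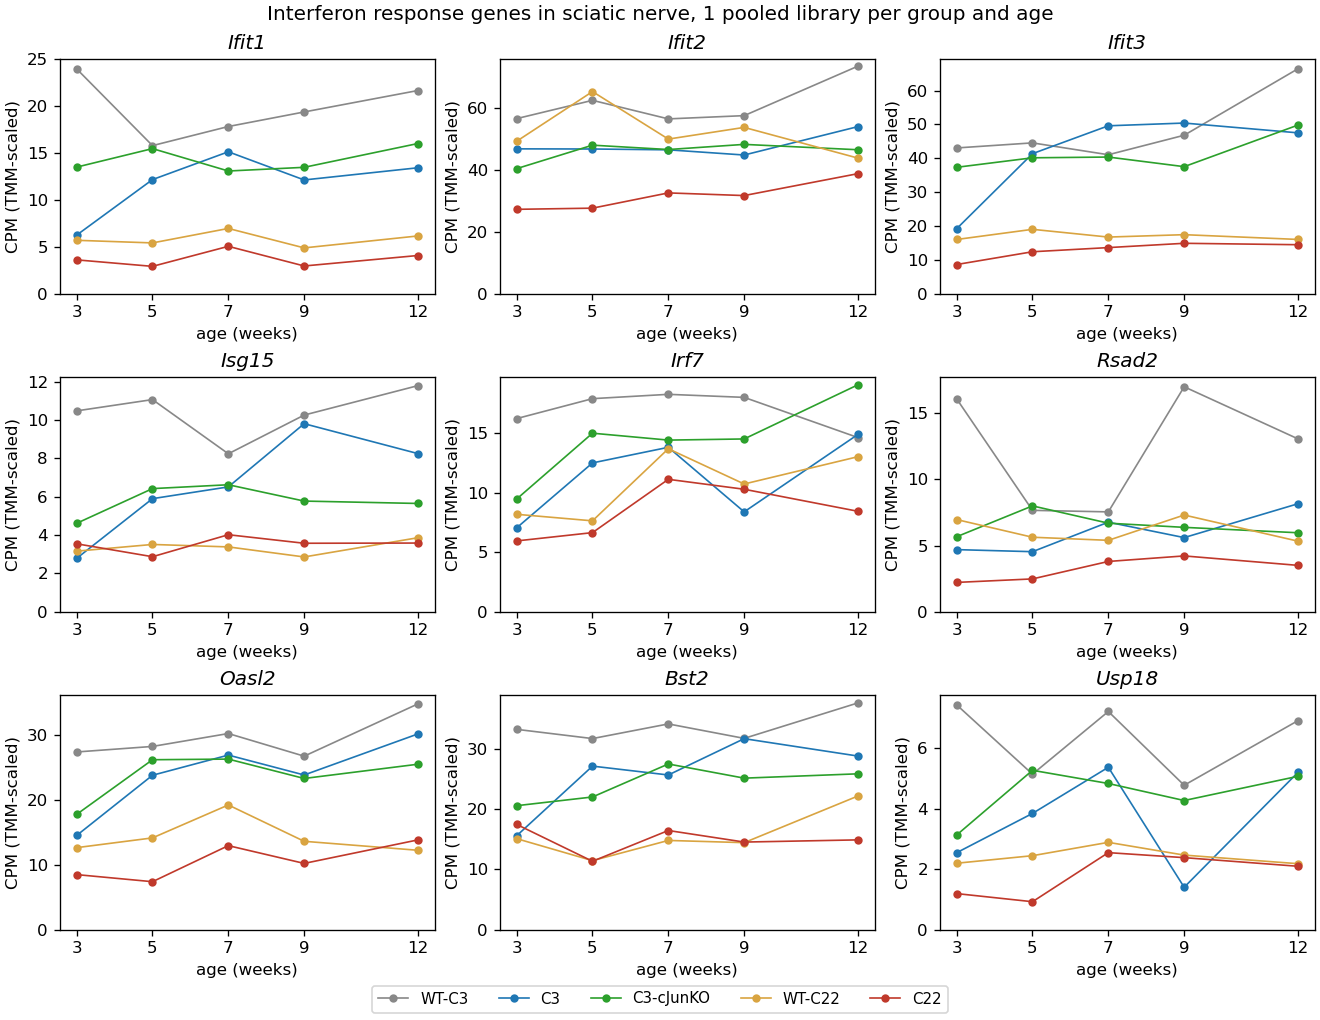
CPM (scaled by TMM, linear axes from 0) of the 9 interferon response genes against age in weeks, 1 point per pooled library, lines joining the pools of a group. WT-C3 had the highest mean for every gene, and the C3 pool of 3 weeks was the lowest C3 pool for 6 genes.

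Isg15 (ENSMUSG00000035692, chr4:156283883-156285303) encodes a ubiquitin-like protein that is attached to other proteins. It read 10.5, 11.1, 8.23, 10.3 and 11.8 CPM in WT-C3 and 2.78, 5.89, 6.51, 9.80 and 8.24 CPM in C3. The first 3 C3 pools were below all controls, and the pools of 9 and 12 weeks were within the control range, the 9-week value resting on 21 counts. It ran from 4.61 to 6.62 CPM in C3-cJunKO, from 2.85 to 3.86 CPM in WT-C22 and from 2.87 to 4.01 CPM in C22, the latter 2 overlapping. Usp18 (ENSMUSG00000030107, chr6:121222848-121247877), which removes Isg15 from proteins and damps the receptor, ran from 4.77 to 7.42 CPM in WT-C3, from 1.40 to 5.36 CPM in C3 with the shallow library as its lowest, from 3.12 to 5.26 CPM in C3-cJunKO, from 2.18 to 2.88 CPM in WT-C22 and from 0.923 to 2.54 CPM in C22.

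Rsad2 (ENSMUSG00000020641, chr12:26492745-26506451) encodes viperin, an enzyme that makes a nucleotide which ends viral RNA chains. It read 16.1, 7.66, 7.55, 17.0 and 13.1 CPM in WT-C3, with the 5-week and 7-week pools well below the other 3. C3 pools held 4.69, 4.54, 6.77, 5.60 and 8.16 CPM, and only the 12-week pool reached into the control range. WT-C22 pools held 6.96, 5.63, 5.39, 7.31 and 5.33 CPM and C22 pools 2.21, 2.48, 3.80, 4.21 and 3.50 CPM, without overlap. C3-cJunKO ran from 5.67 to 8.00 CPM. Oasl2 (ENSMUSG00000029561, chr5:115034997-115050295), a relative of the oligoadenylate synthetases that sense double-stranded RNA, ran from 26.7 to 34.7 CPM in WT-C3, from 14.5 to 30.1 CPM in C3 and from 17.7 to 26.2 CPM in C3-cJunKO. It was lower in the FVB/NRJ groups, from 12.2 to 19.2 CPM in WT-C22 and from 7.38 to 13.8 CPM in C22.

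Bst2 (ENSMUSG00000046718, chr8:71986895-71990114) ran from 31.8 to 37.7 CPM in WT-C3 and from 15.6 to 31.7 CPM in C3, without overlap. The highest C3 pool, the shallow one of 9 weeks, nearly reached the lowest control pool (31.735 against 31.750 CPM). It ran from 11.5 to 22.2 CPM in WT-C22 and from 11.4 to 17.5 CPM in C22, which overlapped. Irf7 (ENSMUSG00000025498, chr7:140842619-140846398), the transcription factor that raises interferon genes in a second wave, ran from 14.7 to 18.3 CPM in WT-C3 and from 7.05 to 14.9 CPM in C3, from 7.65 to 13.7 CPM in WT-C22 and from 5.95 to 11.1 CPM in C22. In C3-cJunKO Irf7 ran from 9.48 to 19.1 CPM, and the 12-week pool exceeded all WT-C3 pools.

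C3 was compared with WT-C3 for the effect of the transgene on C57BL/6J. The interferon response genes leaned lower in C3. Ifit1 fell from 19.7 ± 3.20 CPM to 11.8 ± 3.35 CPM (SD, n = 5; log2 fold change -0.74, SE 0.21, adjusted p = 0.0242), Ifit2 from 61.3 ± 7.26 CPM to 47.8 ± 3.57 CPM (log2 fold change -0.36, SE 0.09, adjusted p = 0.0170) and Rsad2 from 12.3 ± 4.51 CPM to 5.95 ± 1.52 CPM (log2 fold change -1.04, SE 0.27, adjusted p = 0.0158). These 3 of 9 genes were called lower at an adjusted p under 0.05 and none higher, where 11.4% of all genes tested were called lower. The test, here and below, was the quasi-likelihood F-test of edgeR, with p-values adjusted by Benjamini and Hochberg over all 13993 genes. All 9 log2 fold changes were negative, with a median of -0.55 beside 0.00 over all genes tested. The 6 that did not pass ran from -0.24 for Ifit3 (adjusted p = 0.484) to -0.73 for Isg15 (adjusted p = 0.0607). At every age C3 was below WT-C3 for 7 of the genes, a pattern that was not counted over all genes. For 3 (Ifit1, Ifit2 and Bst2) no C3 pool reached the controls, which 8.28% of all genes showed in this direction. For Bst2 both rest on a near tie in the shallow library. It read 31.735 CPM in C3 at 9 weeks against 31.750 CPM in WT-C3 at 5 weeks, and its difference at 9 weeks was -0.002. The difference averaged over the 9 genes was -1.30 on the log2 scale at 3 weeks and then -0.44, -0.24, -0.62 and -0.42 at the later ages. The 9-week value includes Usp18 (-1.71), Rsad2 (-1.59) and Irf7 (-1.09), which rest on 18 counts or fewer in the shallow library, and the other 6 genes averaged -0.19 at that age and -1.21 at 3 weeks. Of those 6, Isg15 (-0.06) and Ifit1 (-0.67) rest on little more in that library, 21 and 26 counts. Without the 3-week pools, a choice made after seeing the data, Rsad2 no longer passed (log2 fold change -0.83, adjusted p = 0.0739) and 2 genes were called. Ifit1 missed the threshold when WT-C3 at 3 weeks, WT-C3 at 12 weeks or C3 at 5 weeks was left out (adjusted p from 0.0522 to 0.0532), and Ifit2 when libraries were scaled by size alone (adjusted p = 0.0692), while leaving out C3 at 12 weeks raised the count to 5. Without the shallow C3 library of 9 weeks Isg15 was also called lower (log2 fold change -0.82, adjusted p = 0.0393). DESeq2 called 6. With age as a block, which takes up the ages the libraries share, 7 were called (all but Ifit3 and Oasl2), where 3691 of all genes were called in either direction beside 3345 without the block.

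In RNA of a whole nerve, fewer cells of a responding type and less RNA per cell cannot be told apart. All 6 endothelial markers had negative log2 fold changes in C3, none of them past the test, with a median of -0.24, and their summed level ran from 362 to 567 CPM in C3 and from 517 to 600 CPM in WT-C3. The 13 macrophage markers, 8 of them negative, summed to 352 to 471 CPM in C3 and to 344 to 615 CPM in WT-C3, with Cd163 called lower (-0.70, adjusted p = 0.0441) and Cx3cr1 called higher (1.05, adjusted p = 0.00287). All 4 tested blood markers had negative log2 fold changes, with a median of -1.65 and none past the test, and the list summed to 45.3 to 371 CPM in C3 and to 117 to 1573 CPM in WT-C3. Of 3 tested markers of plasmacytoid dendritic cells, known producers of interferon, Runx2 was called higher (2.34, adjusted p = 0.000234). The others, Siglech (-0.56) and Tcf4 (-0.24), had negative log2 fold changes and neither passed the test. Siglech averaged 1.90 CPM in C3 and 3.05 CPM in WT-C3, and Tcf4 182 CPM and 215 CPM. Whether Tcf4 and Runx2 came from these cells in whole nerve was not tested. B cell markers summed to 0.657 to 2.71 CPM and T and NK cell markers to 1.98 to 3.73 CPM in C3, and to 1.47 to 2.74 CPM and 1.58 to 2.34 CPM in WT-C3. The part of these cells in the lower interferon response genes was not tested.

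C22 was compared with WT-C22 for the transgene at its higher copy number on FVB/NRJ. Ifit2 fell from 52.4 ± 8.03 CPM to 31.6 ± 4.67 CPM (SD, n = 5; log2 fold change -0.73, SE 0.12, adjusted p = 0.000619). Rsad2 fell from 6.13 ± 0.937 CPM to 3.24 ± 0.862 CPM (log2 fold change -0.92, SE 0.19, adjusted p = 0.00244), Ifit1 from 5.82 ± 0.785 CPM to 3.72 ± 0.886 CPM (-0.65, SE 0.17, adjusted p = 0.0100) and Ifit3 from 17.0 ± 1.25 CPM to 12.8 ± 2.52 CPM (-0.42, SE 0.14, adjusted p = 0.0282). These 4 of 9 were called lower and none higher, where 20.5% of all genes tested were called lower. The log2 fold change was negative for 8 genes, with a median of -0.42 beside 0.00 over all genes, and was 0.07 for Isg15 (adjusted p = 0.719) and -0.08 for Bst2 (adjusted p = 0.739). Ifit2, Ifit3 and Rsad2 did not overlap between the groups, as was true in this direction of 14.5% of all genes. With age as a block 6 were called, Irf7 and Oasl2 being added. Of all genes 6170 were then called in either direction, beside 5939 without the block. The call for Ifit3 was lost when any of 4 libraries was left out (WT-C22 at 5, 7 or 9 weeks or C22 at 5 weeks, adjusted p from 0.0538 to 0.0637) and under scaling by library size alone (adjusted p = 0.172), a scaling that moved the median of all genes from 0.00 to 0.17. Under it Bst2 turned to 0.09. Endothelial markers moved with the group here too, with 3 of 6 called lower, a median log2 fold change of -0.42, and sums of 342 to 543 CPM in C22 and 490 to 703 CPM in WT-C22. Of the 13 macrophage markers, Cd163 (-0.94, adjusted p = 0.00845) and Mrc1 (-0.45, adjusted p = 0.0289) were called lower and Cx3cr1 (1.42, adjusted p = 0.000268) and Aif1 (0.44, adjusted p = 0.0365) higher, with sums of 362 to 512 CPM in C22 and 380 to 588 CPM in WT-C22. Of the 3 tested markers of plasmacytoid dendritic cells, Siglech (-0.65, adjusted p = 0.0430) and Tcf4 (-0.41, adjusted p = 0.00479) were called lower and Runx2 higher (1.61, adjusted p = 1.60e-05). Siglech averaged 3.34 CPM in C22 and 5.28 CPM in WT-C22, and Tcf4 158 CPM and 209 CPM. Whether Tcf4 and Runx2 came from these cells was not tested. The part of these cells was not tested.

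**Figure D2:**
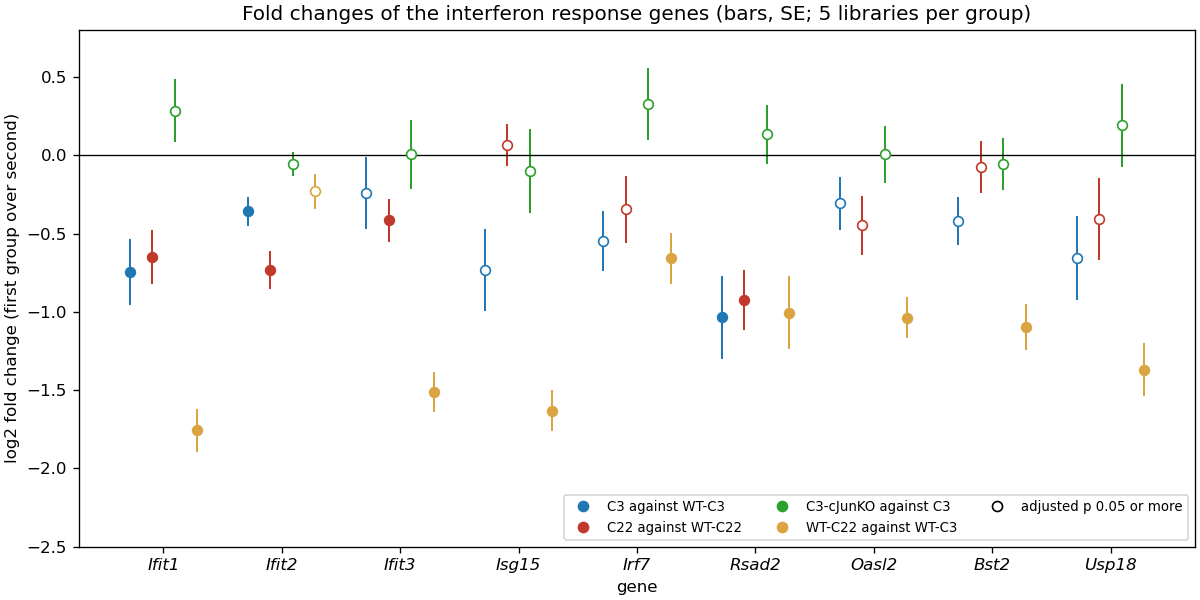
Log2 fold change of each gene in 4 comparisons (y axis, first group over second; bars, SE; n = 5 libraries per group), filled where the adjusted p was under 0.05. C3 and C22 points lie below 0 except Isg15 in C22 (0.07), C3-cJunKO points lie between -0.10 and 0.33, and the WT-C22 against WT-C3 points reach -1.76.

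The change in C22 was then set against the change in C3 in 1 fit of 20 libraries. None of the 9 genes was called different, where 12.1% of all genes were, and 2 (Isg15 and Ifit2) had an unadjusted p under 0.05. The difference was largest for Isg15, at 0.78 on the log2 scale (SE 0.31, adjusted p = 0.111), and for Ifit2, at -0.39 (SE 0.16, adjusted p = 0.119). The median over the 9 genes was 0.10 beside -0.03 over all genes. The difference was 0.07 for Ifit1 (SE 0.28), 0.10 for Rsad2 (SE 0.35) and -0.15 for Oasl2 (SE 0.26), each smaller than its error, which does not show that the models act alike.

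Loss of c-Jun in Schwann cells on the C3 transgene was examined by comparing C3-cJunKO with C3. None of the 9 genes was called, where 0.55% of all genes were (77 of 13993). None had an unadjusted p under 0.05, where 1096 of all genes did. The log2 fold changes ran from -0.10 for Isg15 to 0.33 for Irf7, with SEs of 0.08 to 0.27, adjusted p-values from 0.821 to 1 and a median of 0.01 beside 0.00 over all genes. Irf7 was higher in C3-cJunKO at all 5 ages (9.48, 15.0, 14.4, 14.5 and 19.1 CPM against 7.05, 12.5, 13.8, 8.40 and 14.9 CPM). Its C3 value of 8.40 CPM, from the shallow library, rests on 18 counts, and this pattern was not counted over all genes. Averaged over the 9 genes the difference was 0.47 on the log2 scale at 3 weeks, with 8 genes higher, and from -0.11 to 0.20 at the other ages. The libraries of this comparison pair by age. With age as a block the count of called genes among the 9 was also 0, where 273 of all genes were called.

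The interferon response genes also differed between the wild-type strains, with a median further from 0 than in the other comparisons. The mean of WT-C22 was below that of WT-C3 for all 9 genes and 8 of them were called lower, where 11.7% of all genes were. Ifit1 differed most (5.82 ± 0.785 CPM against 19.7 ± 3.20 CPM; SD, n = 5; log2 fold change -1.76, SE 0.14, adjusted p = 2.38e-06). Isg15 followed at -1.63 (SE 0.13, adjusted p = 3.70e-06), Ifit3 at -1.51 (SE 0.13, adjusted p = 4.95e-06), Usp18 at -1.37 (SE 0.17, adjusted p = 0.000119) and Bst2 at -1.10 (SE 0.14, adjusted p = 0.000195). Oasl2 (-1.04), Rsad2 (-1.01) and Irf7 (-0.66) were also called, and Ifit2 was not (-0.23, SE 0.11, adjusted p = 0.170). For the 8 called genes no WT-C22 pool reached a WT-C3 pool, as held in this direction for 9.33% of all genes. The median over the 9 genes was -1.10, beside 0.00 over all genes. Between 8 and 9 genes were called whichever library was left out. All reads were aligned to the C57BL/6J genome, so a lower level and a lower share of alignable or assignable FVB/NRJ reads cannot be told apart, and this comparison shares its WT-C3 libraries with C3 against WT-C3 and its WT-C22 libraries with C22 against WT-C22.

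Age was examined within each group with a natural spline of 3 degrees of freedom, in 1 fit of all 25 libraries over 18088 genes. In C3, Ifit3 changed with age (adjusted p = 0.00468), the only one of the 9 genes called there, where 1.89% of all genes were, and 6 of the 9 had an unadjusted p under 0.05. Its 3-week pool at 19.2 CPM was below all later C3 pools (41.4 to 50.4 CPM). A linear slope called Isg15 in C3 instead, which rose by 0.15 per week on the log2 scale (SE 0.04, adjusted p = 0.0246), while the slope of Ifit3 was 0.11 (SE 0.03, adjusted p = 0.0664). Without the 3-week C3 pool the linear fit called none. None of the 9 genes was called with the spline in WT-C3 (0.58% of all genes called, 2 of the 9 with an unadjusted p under 0.05), C3-cJunKO (2.82%, 2 genes), WT-C22 (2.58%, 1 gene) or C22 (0.52%, 2 genes). In these age fits the genes with an unadjusted p under 0.05 were not counted over all genes. Age effects were not compared between groups.

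Single pools were then examined for a response in which the 9 genes rose or fell together. For each library the log2 CPM of each gene was taken minus the median of its group, and averaged over the 9 genes. No pool had all 9 genes above the median of its group. The highest mean was 0.26, in C3 at 12 weeks, with 8 genes above the median and 4 at the top of the group (19.8% of all genes), and next was C22 at 7 weeks at 0.22, with 8 above and 4 at the top (11.1% of all genes). The movements downward were larger. C3 at 3 weeks had a mean of -0.74, with 8 genes below the median and 6 the lowest of the group, where 24.1% of all genes tested had their lowest C3 value in that pool. C3-cJunKO at 3 weeks had a mean of -0.31 and the lowest value of its group for 8 of 9 genes, where 28.6% of all genes did. C22 at 5 weeks was the pool with all 9 genes below the median, at a mean of -0.41 with 5 the lowest of the group (22.0% of all genes), and C22 at 3 weeks had -0.31 with 4 the lowest (23.1% of all genes). Endothelial markers were low in the same pools. They summed to 362 CPM in C3 at 3 weeks (456 to 567 CPM at the other ages), to 415 CPM in C3-cJunKO at 3 weeks (541 to 634 CPM), and to 342 CPM in C22 at 5 weeks and 357 CPM at 3 weeks (408 to 543 CPM), in each case the lowest of the group. Fibroblast markers were highest at 3 weeks in C3 (18523 CPM), C3-cJunKO (20911 CPM) and C22 (15196 CPM). The same held in the controls, WT-C3 (20242 CPM) and WT-C22 (16085 CPM). The part of these cells in the low pools was not tested. In the controls the means stayed between -0.15 and 0.16. The C22 pool of 9 weeks, which held T and NK cell markers at 18.8 CPM (3.57 to 5.94 CPM in the other C22 pools) beside its B cell markers, had a mean of 0.06, with 4 genes above, 2 below and none the lowest.

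**Figure D3:**
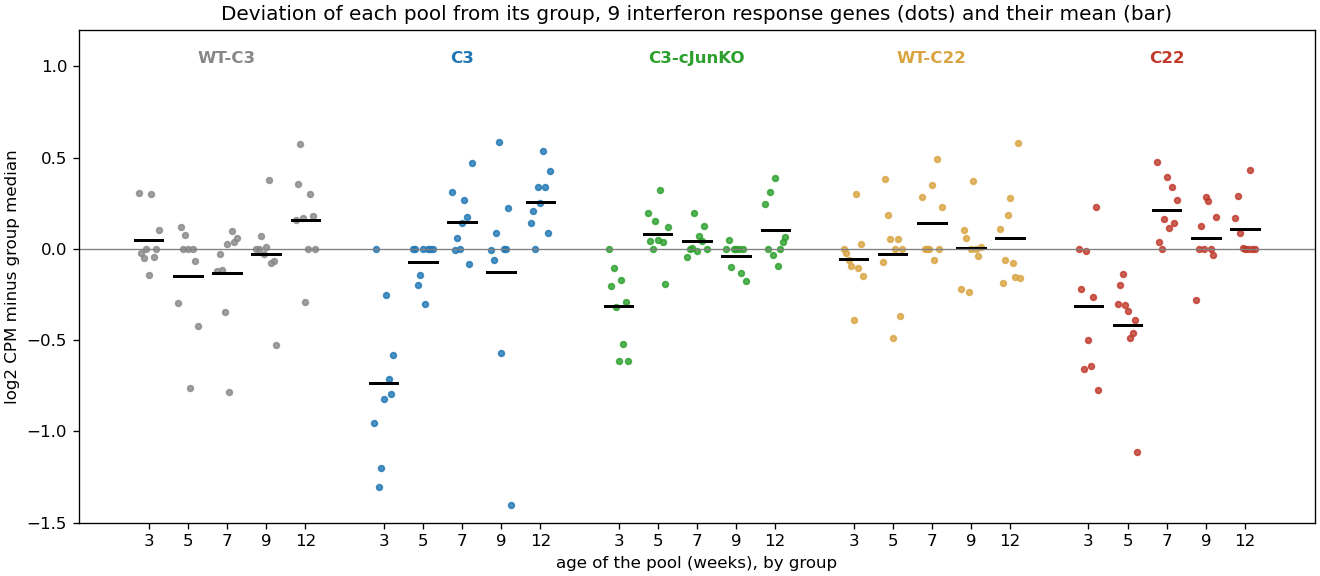
Log2 CPM minus the group median (y axis) for the 9 genes (dots) and their mean (bar) in each pool, by group and age in weeks. The bars run from -0.74 in C3 at 3 weeks to 0.26 in C3 at 12 weeks, and the lowest dot is Usp18 in the shallow C3 library of 9 weeks, which rests on 3 counts.

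Single genes also had a pool apart from the other 4 of its group by Dixon's criterion, in 6 of the 45 combinations of gene and group, where 8.75% of all genes and groups did. Ifit3 was high in WT-C3 at 12 weeks (66.4 CPM, the others 41.0 to 46.8) and in C3-cJunKO at 12 weeks (49.8 CPM, the others 37.3 to 40.4), and low in C3 at 3 weeks. Ifit2 was high in C3 at 12 weeks (54.0 CPM, the others 44.8 to 46.8) and low in C3-cJunKO at 3 weeks (40.4 CPM, the others 46.5 to 48.2). Oasl2 was high in WT-C22 at 7 weeks (19.2 CPM, the others 12.2 to 14.1). Over the 25 libraries, the deviations of pairs of the 9 genes from their group means correlated with Pearson's r between -0.14 and 0.74 (median 0.45 over 36 pairs, 13 of them over 0.5), given as a description since the libraries share depth and ages.

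Upstream of the 9 genes, the interferons themselves were barely detected. Of 21 interferon genes 13 had no count in any library, which allows up to 3 counts in each, the other 8 had 23 counts in all over 25 libraries, and no library had more than 4. None could be tested. The receptors were measured, and 4 of 6 passed the filter. Beside the calls in this and the next paragraph, 1743 of all 13993 genes tested were called higher in C3 and 3070 in C22. Those called lower numbered 1602 in C3 and 2869 in C22. Ifnar1 rose in C3 (94.2 CPM against 78.1 CPM, log2 fold change 0.27, adjusted p = 0.0132), and in C22 Ifnar2 rose (0.24, adjusted p = 0.0190) and Ifngr2, a chain of the interferon gamma receptor, fell by 0.33 on the log2 scale (adjusted p = 0.0187).

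Of 5 signal transduction genes, Tyk2 rose in C3 (0.38, adjusted p = 0.0153) and in C22 (0.29, adjusted p = 0.0186). In C22 Jak2 rose (0.26, adjusted p = 0.0306) and Jak1 fell by 0.28 (adjusted p = 0.0224). Of 15 tested genes for nucleic acid sensing, Ticam1 rose in C3 (0.39, adjusted p = 0.0339), and in C22 Irf3 rose (0.33, adjusted p = 0.00749) while Tlr3 and Rigi, receptors for double-stranded RNA, fell by 0.69 (adjusted p = 0.000791) and 0.59 (adjusted p = 0.00265). The rise was 6.67% of these genes in each model, and the falls in C22 were 13.3%, where 20.5% of all genes were called lower. Of 8 regulators, Socs3, a feedback inhibitor of the kinases, fell by 0.69 in C22 (adjusted p = 0.000891), and its change in C22 differed from that in C3 by -1.06 (SE 0.19, adjusted p = 0.000775).

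Among 47 tested type I interferon targets other than the 9, 1 was called higher and 9 lower in C3, and 1 higher and 12 lower in C22, with medians of -0.31 and -0.26. The lower calls are 19.1% of these targets in C3 and 25.5% in C22, where 11.4% and 20.5% of all genes were called lower, so that the share in C22 was near that of all genes. Among the called genes the largest falls in C3 were those of Ifitm2 (log2 fold change -2.05, adjusted p = 0.00200), which blocks viral entry, Ifi44 (-0.88, adjusted p = 0.00918) and Rtp4 (-0.77, adjusted p = 0.0221). Ifitm2 read 9.14, 7.42, 10.4, 11.3 and 12.6 CPM in WT-C3 and 1.52, 1.43, 1.71, 5.13 and 4.41 CPM in C3. In C22 they were those of Ifit1bl1 (-1.66, adjusted p = 0.000191), Ifi44 (-0.79, adjusted p = 0.0130) and Rtp4 (-0.65, adjusted p = 0.0285). Znfx1, an RNA helicase, was the 1 gene called higher in each (0.44 in C3, adjusted p = 0.00281; 0.29 in C22, adjusted p = 0.0481). The changes in C22 and C3 differed for Ifitm2 (2.36, SE 0.49, adjusted p = 0.00292) and Ifit1bl1 (-1.12, SE 0.36, adjusted p = 0.0457). Ifitm2 was not called in C22 (0.32, adjusted p = 0.418). Its mean was 10.2 CPM in WT-C3, against 2.84 CPM in C3, 2.31 CPM in WT-C22 and 2.84 CPM in C22. In C3-cJunKO against C3 none was called, and in WT-C22 against WT-C3 1 was called higher, Tor3a (0.38, adjusted p = 0.00590), and 14 lower, led by Ifitm2 (-2.17, adjusted p = 1.50e-05), Ifi44 (-1.52, adjusted p = 6.70e-05) and Ifi204 (-1.22, adjusted p = 0.00403). These 14 are 29.8% of the targets, where 11.7% of all genes were called lower between the strains.

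Of the 19 tested targets of interferon gamma, 1 was called higher and none lower in C3, with a median of -0.19. The called gene was Cxcl10, a chemokine that attracts T cells, which read 2.34, 2.05, 1.60, 2.07 and 2.56 CPM in WT-C3 and 7.02, 9.30, 8.93, 5.13 and 6.76 CPM in C3 (log2 fold change 1.83, SE 0.19, adjusted p = 0.000101). In C22 Cxcl10 also rose (1.74, SE 0.20, adjusted p = 3.99e-05), with Cxcl11 (0.84, adjusted p = 0.0238) and Gbp9 (0.41, adjusted p = 0.0141), and Igtp fell by 0.45 (adjusted p = 0.0403). In C3-cJunKO, which shares the C3 libraries with the comparison above, Cxcl10 read 2.54, 2.80, 2.81, 2.88 and 3.87 CPM, all below C3 (log2 fold change -1.35, SE 0.18, adjusted p = 0.00378). Between the wild-type strains 8 of the 19 were called lower in WT-C22, led by Cxcl11 (-3.14, adjusted p = 1.74e-07), Gbp6 (-2.13, adjusted p = 1.67e-05) and Cxcl10 (-1.62, adjusted p = 0.000332), and 1 higher, Gbp9 (0.61, adjusted p = 0.00373). These 8 are 42.1% of the list, where 11.7% of all genes were called lower. Higher calls were 5.26% of the list in C3 and 15.8% in C22, where 1743 and 3070 of 13993 genes were called higher.

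**Figure D4:**
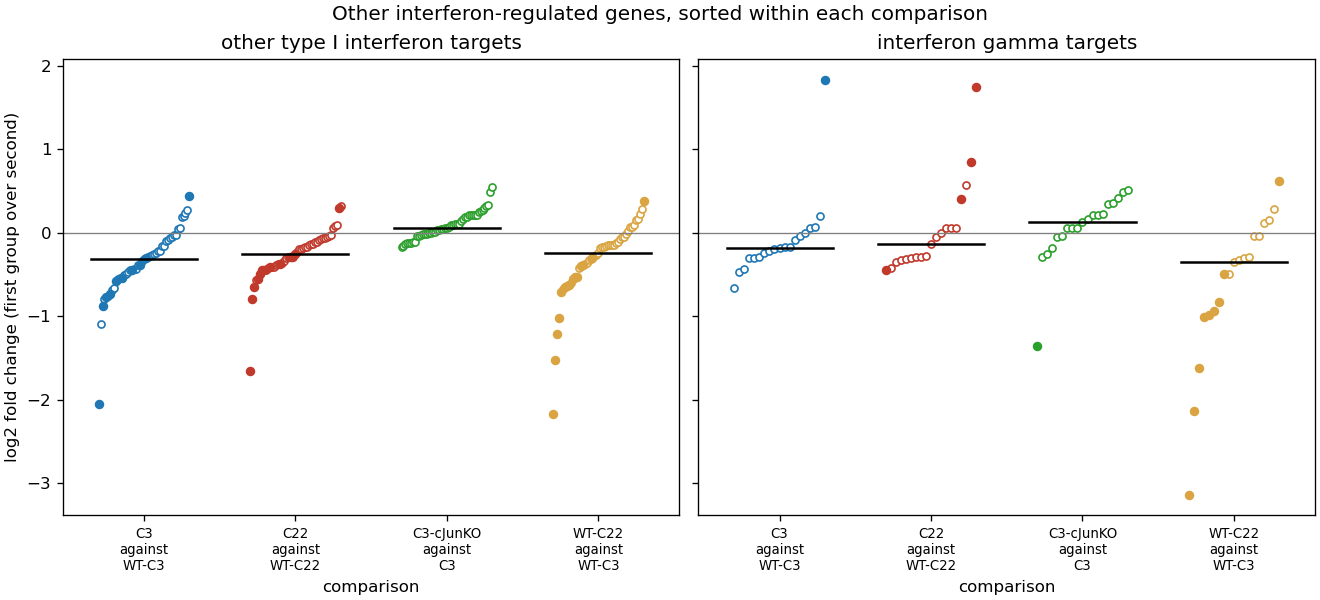
Log2 fold changes (y axis, first group over second) of the 47 other type I interferon targets (left) and the 19 interferon gamma targets (right) in 4 comparisons, sorted within each, filled where the adjusted p was under 0.05, with the median as a line. The medians of the type I targets were -0.31 in C3 and -0.26 in C22, and Cxcl10 is the highest point in both on the right.

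The genes whose levels moved most like the mean of the 9 were sought over all 25 libraries, as a description. For deviations from the group means these were Irgm1 (Pearson's r = 0.90), Iigp1 (0.88), Tgtp2 (0.88), Gbp5 (0.86) and Iigp1c (0.85). For log2 CPM itself, in which differences between groups count, they were Frzb (0.96), Rtp4 (0.95), Irgm2 (0.94), Lmntd1 (0.93) and Ifi44 (0.93). Irgm1, Irgm2, Iigp1 and Tgtp2 belong to the immunity-related GTPases and Gbp5 to the guanylate-binding proteins, and Frzb is a secreted antagonist of Wnt.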

How the data were processed

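RNA of sciatic nerve was examined in 25 libraries, 5 per group. Per the paper and the submitters' processing notes, the authors trimmed the reads (cutadapt 2.10), aligned them to GRCm39 with human sequence added (STAR 2.7.5a), removed duplicates by molecular identifier (UMI-tools 1.1.1) and deposited counts per Ensembl gene (HTSeq 0.12.4) without normalization. Reads on no gene (8.12% to 12.11% of a library), on several genes (1.78% to 2.04%) or at several places (2.76% to 3.93%) were left out.

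The 9 genes, the lists and the tests were chosen with earlier results of these data known. Of 210 list symbols, 209 matched a gene, and 1 further gene is not reported here. CPM values were scaled by TMM over all libraries, and log2 CPM used a prior count of 2. Comparisons were fitted in R 4.3.3 with edgeR 4.0.16 on the libraries compared, with group as the term. SEs are the log2 fold change over the root of F. DESeq2 1.42.0 was an alternative, with other scalings and filters, age as a block, and leaving out each library. Age used filterByExpr, which kept 18088 genes. The genes named are all 9 in every comparison, at most 3 per direction of each other interferon list, and the 5 most alike by each measure. Single cell type markers were named where called, after their values were seen. The mean over the 9 genes per pool has no test. Steps were tested on simulated data.

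After removal of group means, libraries of the same age correlated positively across genes at every age in C3-cJunKO against C3. The values were 0.438, 0.123, 0.347, 0.264 and 0.615 with rising age, and these libraries were treated as pairs in the blocked fit. In WT-C22 against WT-C3 they were also positive, though near 0 at 12 weeks (0.342, 0.653, 0.148, 0.536 and 0.0458). C3 against WT-C3 was negative at 5 weeks (-0.224) and C22 against WT-C22 at 12 weeks (-0.150). No 2 libraries were identical.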

Additional observations from a re-analysis of the deposited data

Results flagged for a closer look

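Chance alone sets 1 of 5 pools apart from its group by Dixon's criterion in about 1 of 20 groups, and the values below are given without explanation. Among the 9 genes, Ifit3 stood apart in WT-C3 at 12 weeks (66.4 CPM, high), in C3 at 3 weeks (19.2 CPM, low) and in C3-cJunKO at 12 weeks (49.8 CPM, high). Ifit2 stood apart in C3 at 12 weeks (54.0 CPM, high) and in C3-cJunKO at 3 weeks (40.4 CPM, low), and Oasl2 in WT-C22 at 7 weeks (19.2 CPM, high). The summed nucleic acid sensing genes were low in C3-cJunKO at 3 weeks (248.6 CPM).

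Among the markers of cell types, the C22 pool of 9 weeks was high for B cells (18.9 CPM in sum), T and NK cells (18.8 CPM), neutrophils (1.04 CPM) and blood (507 CPM), while the 9 genes in that pool had a mean deviation of 0.06. Neutrophil markers were high in WT-C3 at 9 weeks (2.30 CPM). Skeletal muscle markers were high in WT-C3 at 5 weeks (3327 CPM) and in WT-C22 at 5 weeks (8451 CPM), and Schwann cell markers were low in C3 at 12 weeks (37070 CPM).

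The change with the transgene differed between C22 and C3 for 3 of the other interferon genes reported here in the test of the difference itself. These were Ifitm2 (2.36 on the log2 scale), Ifit1bl1 (-1.12) and Socs3 (-1.06). For Ifitm2 the mean was 10.2 CPM in WT-C3, against 2.84 CPM in C3, 2.31 CPM in WT-C22 and 2.84 CPM in C22.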

How the results depend on the processing

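The count of the 9 genes called in C3 against WT-C3 (3 in the fit reported) was 6 with DESeq2 and ran from 2 to 5 when 1 library was left out. It was lowest without WT-C3 at 3 weeks, WT-C3 at 12 weeks or C3 at 5 weeks, and highest without C3 at 12 weeks. With age as a block it was 7. The C3 and WT-C3 libraries share their ages, but their deviations from the group means were not alike at every age. The block gave 6 of 9 in C22 against WT-C22, 8 in WT-C22 against WT-C3, and 0 in C3-cJunKO against C3 and in the difference between C22 and C3. Over all genes it called 6170 in C22, 3721 between the strains and 273 in C3-cJunKO against C3, in either direction. Leaving out 1 library gave 3 to 5 in C22, 8 to 9 between the wild-type strains, and 0 in the other 2 comparisons. Without the 3-week libraries the counts were 2 in C3, 4 in C22, 8 between the strains and 0 in the other 2. The spline with 2 degrees of freedom called 2 genes with age in C3, and the linear slope called 0 to 2 there when 1 C3 library was left out. Scaled by library size alone, the mean deviation of C3-cJunKO at 3 weeks was -0.50 in place of -0.31.

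Directions turned only for values near 0 that were not called, and the cause was not tested. In C22, Bst2 was 0.092 by library size and -0.16 to 0.088 over the libraries left out. In the difference between C22 and C3, Ifit1 was -0.17 without the 3-week libraries and -0.10 to 0.20 over the libraries left out, and Rsad2 was -0.0022 with the block and -0.044 to 0.27 over the libraries left out. In C3-cJunKO against C3, Ifit3 was -0.0052 with DESeq2, -0.00066 in 1 fit of all libraries and -0.15 without the 3-week libraries, and Oasl2 was -0.051 without the 3-week libraries. Over the libraries left out, Ifit3 ran from -0.19 to 0.087, Isg15 from -0.32 to 0.049, Oasl2 from -0.14 to 0.12 and Bst2 from -0.20 to 0.0048, each lowest or highest without a C3 library. No value of the 9 genes turned direction in C3 against WT-C3 or in WT-C22 against WT-C3. For the other interferon genes none turned direction, but some results weakened under other settings. In C22 against WT-C22 46 fits of a gene were weaker and 260 the same, and in C3 against WT-C3 12 and 132. Between the strains 32 were weaker and 238 the same, and in the difference between C22 and C3 15 and 69.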
